A study of Mus musculus with 6 samples.

Results

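The constitutive proteasome was examined through every probe whose platform symbol belongs to the Psma to Psmg families, without the immunoproteasome subunits Psmb8, Psmb9 and Psmb10. This rule took 46 gene symbols of 19053 on the array, read by 81 of its 45281 probes. It also took 3 probes of Psme3ip1 and 1 of Psmc3ip, whose products are not proteasome subunits; these 4 probes were counted as members but kept apart below, which left 77 probes of 44 genes. The core particle (Psma and Psmb) had 26 probes of 16 genes, and the regulatory group (Psmc, Psmd, Psme and Psmg) had 51 probes of 28 genes. RNA enriched for endothelium came from carotid arteries of C57Bl/6J mice, genotype WT in both groups, and was hybridised to Illumina bead arrays, which read labelled RNA by its binding to beads that carry a probe. There were 3 arrays of stable flow and 3 of disturbed flow, called below stable arrays 1 to 3 and disturbed arrays 1 to 3 by their replicate numbers. The sources used here do not give the age of the mice, how disturbed flow arose or whether RNA was pooled. The labels do not say that replicates were different animals, and the p-values below therefore describe the spread of these samples, part of which may be technical.

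The proteasome degrades proteins that carry ubiquitin chains. Its core particle is a barrel of stacked rings, in which alpha subunits form the gate and 3 of the beta subunits, encoded by Psmb5, Psmb6 and Psmb7, carry the active sites. The regulatory particle caps the barrel: its base holds a ring of ATPases (Psmc) that unfold the substrate, and its base and lid hold non-ATPase subunits (Psmd) that bind and remove ubiquitin. The Psme activators can bind the barrel in place of this cap, and the Psmg chaperones with Psmd5, Psmd9 and Psmd10 help the particles to assemble. In mammals the transcription factor NRF1, encoded by Nfe2l1, raises proteasome genes together when the proteasome is inhibited.

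The direction of every difference rests on the sample descriptions, which name the scanned arrays. The deposited table of processed values contradicts them: each of its 6 columns had the rank order of an array described as the other group (rank correlation 1). Differences are given as disturbed flow minus stable flow by the descriptions, and every sign would turn under the column names. Neither source settles which is right. The array codes in the descriptions share a leading number within each group and differ in it between the groups. If that number marks a slide, which the labels do not say, a slide effect and a flow effect cannot be told apart. Arrays were also uneven: 9.74% of all probes were above background on stable array 2, against 19.6% to 35.0% on the other 5. Before normalization, the log2 signals of tested probes had an interquartile range of 0.14 on stable array 2, against 0.30 to 0.93 on the other 5. Quantile normalization gives every array the same spread, so high and low values on stable array 2 rest on small differences in signal. Pecam1 and Cdh5, both endothelial junction genes, were above background on all 6 arrays, and so was the smooth muscle actin gene Acta2. The endothelial receptor gene Kdr was above background on 0 arrays.

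Proteasome probes were above background more often than probes at large on every array. Of the 26 core probes, the number above background (detection p under 0.05 against negative control beads) was 22, 9 and 22 on stable arrays 1, 2 and 3, and 20, 23 and 15 on disturbed arrays 1, 2 and 3. Of the 51 regulatory probes, the numbers were 42, 8 and 34 under stable flow and 44, 40 and 26 under disturbed flow. Together they reached 83.1%, 22.1% and 72.7% under stable flow and 83.1%, 81.8% and 53.2% under disturbed flow, where all probes reached 35.0%, 9.74% and 24.6%, and 34.7%, 29.7% and 19.6%. Stable array 2 was lowest and disturbed array 3 next lowest in each set. The groups overlapped for core and for regulatory probes.

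**Figure D1:**
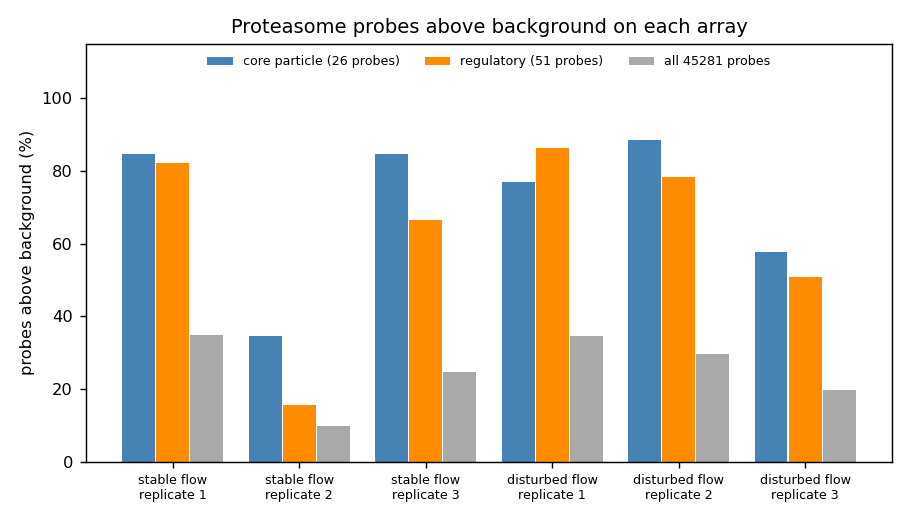
Share of probes above background (percent, y axis) on each of the 6 arrays (x axis), for core particle probes, regulatory probes and all probes on the array. Proteasome probes stand above all probes on each array, and stable array 2 is lowest at 34.6% of core and 15.7% of regulatory probes.

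Counting a gene as present where at least 1 of its probes was above background, 28 of the 44 genes were present on 5 or 6 arrays. The 12 present on all 6 were Psma2, Psma5, Psma7, Psmb4, Psmb7, Psmc1, Psmc2, Psmc5, Psmd4, Psmd8, Psmd13 and Psme1. Another 16 were present on every array except stable array 2. By array, 38, 13 and 36 genes were present under stable flow, and 39, 37 and 29 under disturbed flow. On all 3 arrays of a group, 13 genes were present under stable flow and 29 under disturbed flow. More disturbed than stable arrays held 21 genes, more stable than disturbed arrays held 4, and 19 were even. The same counts were not made over all genes. Of all probes, 9.74% were above background on stable array 2, against 19.6% to 35.0% on the other 5, so these counts are not read as a proteasome result. With stable array 2 left aside, 36 genes were present on both other stable arrays.

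Of the 44 genes, 8 had no probe above background on at least 3 arrays and were not tested. They were the core alpha genes Psma3 and Psma8, the activator gene Psme2, the lid gene Psmd3, and the assembly chaperone genes Psmd5, Psmg1, Psmg3 and Psmg4. Psma8, which encodes an alpha subunit known from testis, was above background on stable arrays 1 and 3 and on 0 disturbed arrays. Psma3 and Psme2 were above background on 0 arrays, each through a single probe. Psmg1 and Psmg3 were above background on 0 stable arrays and on disturbed arrays 1 and 2, and Psmg4 and Psmd5 on disturbed array 1 alone. The normalized log2 intensity of Psmg1 was 4.52, 4.24 and 4.23 under stable flow and 4.62, 6.80 and 4.97 under disturbed flow. Its stable values were not well above background and bound the level from above, so no fold is given.

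The comparison asks which genes of carotid endothelium differ between disturbed and stable flow, and 0 proteasome probes passed. Of the 63 member probes tested, limma called 0 at an adjusted p under 0.05, as it called 0 of all 12546 tested probes (0%). At an unadjusted p under 0.05 there were 0 members, against 2.69% of all tested probes (1.55% higher and 1.15% lower) and 2.97% of all tested genes. The smallest adjusted p of a member was 0.890. The groups did not overlap for 4 of the 61 tested subunit probes (6.56%), all higher, against 9.68% of all tested probes (5.68% higher and 4.00% lower).

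Over 36 member genes, each given by its tested probe with the highest mean, 23 had a higher and 13 a lower mean under disturbed flow, with a median log2 difference of 0.21. Over all 6980 tested genes, 57.8% had a higher mean and the median was 0.11. The groups did not overlap for 1 of the 36 genes, Psme4, which was higher, where 10.2% of all tested genes did so (5.99% higher and 4.17% lower). These members had passed the filter on dim probes, so the counts leave out the 8 genes above.

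The core particle had a median log2 difference of 0.092 over 14 genes, 9 with a higher and 5 with a lower mean. The median had the opposite sign when stable array 2 (-0.087) or disturbed array 1 (-0.089) was left out, and with array weights (-0.038). It was 0.34 with arrays scaled to the same 75th percentile and 0.028 with cyclic loess. The regulatory group had a median of 0.26 over 22 genes, 14 higher and 8 lower. That value was 0.082 when stable array 2 was left out, 0.46 when stable array 3 was and 0.17 when disturbed array 1 was, and 0.11 with cyclic loess. The median over all 36 genes was 0.022, 0.40 and 0.10 when the same arrays were left out in turn, and 0.0070 with array weights, 0.36 with the 75th percentile and 0.11 with cyclic loess.

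**Figure D2:**
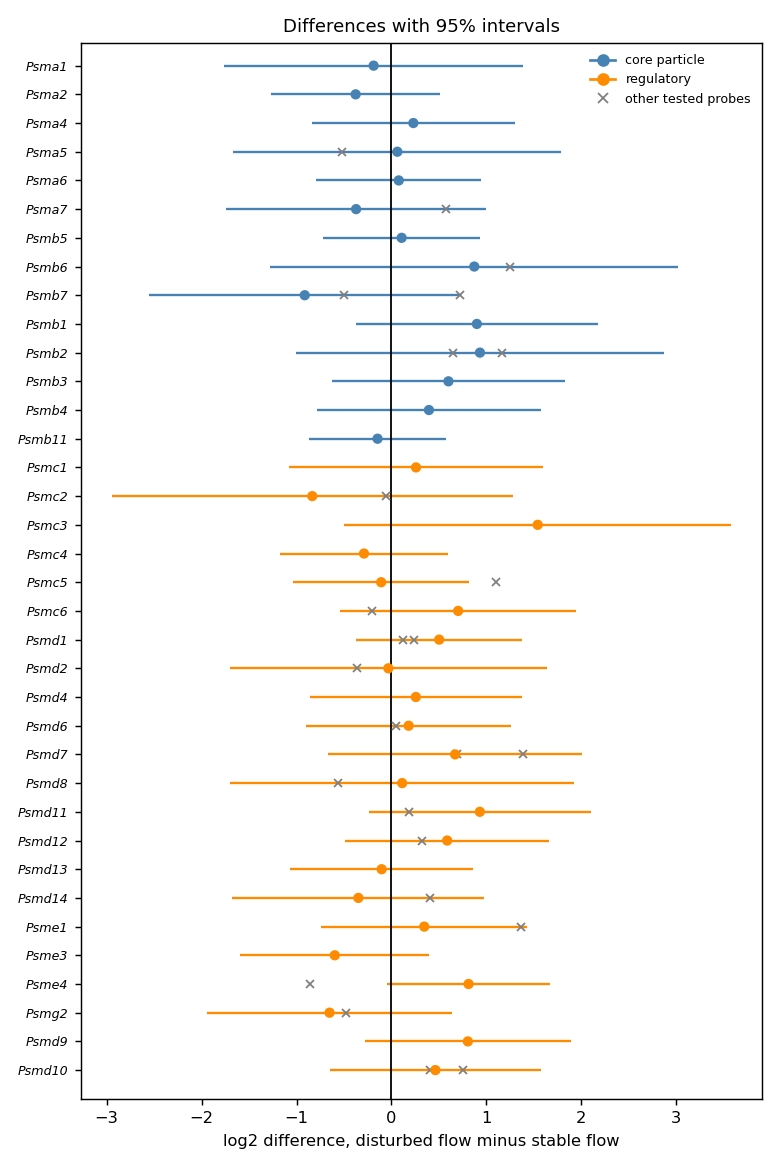
Log2 difference, disturbed flow minus stable flow (x axis), of the tested probe with the highest mean for each of 36 proteasome genes (y axis), with 95% intervals from limma over 3 arrays a group; crosses mark other tested probes of the gene. All 36 intervals include 0, and the differences run from -0.91 (Psmb7) to 1.54 (Psmc3).

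The precision was low. The standard error of a member gene's log2 difference ranged from 0.31 to 0.92, with a median of 0.50. The 95% interval had a half-width of 0.72 to 2.15, with a median of 1.18. For 3 genes the interval lay within a log2 difference of 1 in either direction, and for 28 genes within 2.

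The 3 active-site subunits had differences of unlike sign. Psmb5, of the chymotrypsin-like site, had normalized log2 intensities of 4.73, 4.36 and 5.05 under stable flow and 5.12, 4.72 and 4.61 under disturbed flow. The groups overlapped, with a difference of 0.11 (SE 0.35, 95% interval -0.72 to 0.93, limma adjusted p = 0.954). The sign was the opposite when stable array 2 (-0.071) or disturbed array 1 (-0.046) was left out, with array weights (-0.036) and with no normalization (-0.10). Its probe was above background on 4 arrays.

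Psmb6, of the caspase-like site, had 6.40, 4.36 and 6.04 under stable flow and 6.60, 8.11 and 4.70 under disturbed flow on its brightest probe. Disturbed array 2 was high and stable array 2 low, and the difference of 0.87 (SE 0.92, 95% interval -1.28 to 3.02, limma adjusted p = 0.890) was 0.053 when disturbed array 2 was left out. Its other probe gave 5.67, 4.46 and 5.39 against 6.27, 7.59 and 5.42, a difference of 1.25 (SE 0.62). Both probes placed the same array highest and the same array lowest.

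Psmb7, of the trypsin-like site, gave 7.39, 6.96 and 9.69 under stable flow and 6.94, 7.06 and 7.31 under disturbed flow on its brightest probe. Stable array 3 stood apart, and the difference of -0.91 (SE 0.70, 95% interval -2.56 to 0.73, limma adjusted p = 0.890) was -0.074 when that array was left out and -1.44 when stable array 2 was. Its other tested probes gave -0.50 (SE 0.45) and 0.72 (SE 0.51). On stable array 3 those probes had 5.49 and 5.67, neither of them its highest array.

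The regions around gene starts are shown because NRF1 acts through the antioxidant response element. RefSeq promoter windows (GRCm38.p6, 250 bases before to 50 after the start) were found for 36 of the 44 genes, in 39 windows. The core of that element, TGACNNNGC, searched on both strands, lay in 6 of the 39 windows (15.4%), against 12.4% of all 32851 windows. It was found in Psmb5, Psmb6, Psmc6, Psmd9, Psmd12 and Psme4. The CCAAT box, searched as CCAAT on both strands, lay in 13 windows (33.3%), against 37.4% of all, and neither motif contains the other. The windows of the 4 of these genes that are described by value are printed 5′ to 3′ along the gene's strand, with the match in capitals: Psmb5 (chr14:54617946-54618245, minus strand), Psmb6 (chr11:70525107-70525406, plus strand), Psmd9 (chr5:123227940-123228239, plus strand) and Psme4 (chr11:30771525-30771824, plus strand).
Psmb5: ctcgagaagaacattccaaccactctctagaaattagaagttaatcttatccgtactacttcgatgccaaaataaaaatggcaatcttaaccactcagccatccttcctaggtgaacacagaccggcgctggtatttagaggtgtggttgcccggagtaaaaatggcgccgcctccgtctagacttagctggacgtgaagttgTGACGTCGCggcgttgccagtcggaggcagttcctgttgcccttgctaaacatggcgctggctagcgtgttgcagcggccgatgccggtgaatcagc
Psmb6: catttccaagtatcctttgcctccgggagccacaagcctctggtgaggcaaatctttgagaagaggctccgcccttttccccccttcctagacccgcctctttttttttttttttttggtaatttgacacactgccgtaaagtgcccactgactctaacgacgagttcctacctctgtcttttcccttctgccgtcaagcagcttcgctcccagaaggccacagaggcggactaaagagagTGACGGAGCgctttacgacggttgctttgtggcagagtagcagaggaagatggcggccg
Psmd9: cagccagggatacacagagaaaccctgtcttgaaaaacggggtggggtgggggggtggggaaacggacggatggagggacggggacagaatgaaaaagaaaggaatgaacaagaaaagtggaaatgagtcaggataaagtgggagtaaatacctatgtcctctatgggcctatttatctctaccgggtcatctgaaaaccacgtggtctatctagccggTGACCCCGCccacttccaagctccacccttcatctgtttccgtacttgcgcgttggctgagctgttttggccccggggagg
Psme4: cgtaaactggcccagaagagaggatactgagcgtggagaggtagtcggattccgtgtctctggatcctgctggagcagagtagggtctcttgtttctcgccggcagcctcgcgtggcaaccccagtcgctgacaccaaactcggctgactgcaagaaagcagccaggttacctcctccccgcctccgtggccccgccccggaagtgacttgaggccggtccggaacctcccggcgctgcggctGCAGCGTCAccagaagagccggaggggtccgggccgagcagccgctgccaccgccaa
The match begins 47 bases before the start in Psmb5, 9 in Psmb6, 31 in Psmd9 and 7 in Psme4, where it is read on the opposite strand. A match describes the letters and is not a site of binding. The log2 differences of these genes were 0.11, 0.87, 0.80 and 0.81, and 0 of the 4 passed the test. The other tested probe of Psme4 gave -0.85. Psmd9 and Psme4 had been named for the most positive difference of their classes in these data. The 4 differences are thus a picked set, and a link with the motif was not tested.

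Among the other beta subunits, 4 genes had a higher and 1 a lower mean, with a median of 0.60. Psmb2 had 6.18, 5.24 and 7.71 against 6.89, 8.76 and 6.27, with disturbed array 2 highest and stable array 2 lowest. Its difference of 0.93 (SE 0.83, limma adjusted p = 0.890) was 0.21 when disturbed array 2 was left out and 0.36 when stable array 2 was. All 3 of its probes were tested and gave 0.65 to 1.16.

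Psmb1 had 6.03, 4.35 and 6.09 against 6.59, 5.96 and 6.63, with stable array 2 lowest. The groups overlapped, and the difference of 0.90 (SE 0.54, limma adjusted p = 0.890) was 0.33 when that array was left out. Psmb4, above background on all 6 arrays, had 8.66, 7.76 and 7.83 against 9.41, 8.03 and 7.996, with disturbed array 1 highest. Its difference of 0.39 (SE 0.50) was -0.069 when that array was left out. Psmb11, which encodes a beta subunit of the thymus, had 4.70, 4.61 and 4.86 against 4.50, 4.74 and 4.49, a difference of -0.15 (SE 0.31). Its groups overlapped, and its probe was above background on 3 arrays.

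The core alpha genes had the narrowest range of differences among the classes with more than 3 tested genes. They ran from -0.38 to 0.23 over 6 genes, 3 higher and 3 lower, with a median of -0.063. Psma2, above background on all 6 arrays, had 8.68, 8.56 and 7.998 against 7.89, 7.72 and 8.50. The groups overlapped, and its difference of -0.38 (SE 0.38, limma adjusted p = 0.890) became 0.55 with arrays scaled to the same 75th percentile and 0.34 with no normalization. Psma4 had 6.22, 4.73 and 6.01 against 5.95, 5.87 and 5.83, with an SD of 0.80 under stable flow and 0.062 under disturbed flow. Stable array 2 alone was low, and the difference of 0.23 (SE 0.46) became -0.23 when it was left out.

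Psma5 and Psma7 were both highest on disturbed array 1. Psma5 had 7.50, 8.14 and 6.97 against 9.26, 6.56 and 6.97, and its difference of 0.062 (SE 0.74) became -0.77 when that array was left out. Psma7 had 7.78, 7.97 and 8.82 against 8.97, 6.94 and 7.54, a difference of -0.37 (SE 0.58), or -0.95 when that array was left out, against 0.57 (SE 0.62) on its other probe. For both genes the groups overlapped.

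The ATPases of the base ran from -0.83 to 1.54, 3 higher and 3 lower, with a median of 0.075. Psmc3 had 5.80, 4.25 and 5.20 under stable flow and 7.02, 8.13 and 4.72 under disturbed flow. Disturbed array 2 was highest, and disturbed array 3 lay within the stable range. The difference was 1.54 (SE 0.87, 95% interval -0.50 to 3.58, limma adjusted p = 0.890). It was 0.79 when disturbed array 2 was left out, 2.49 when disturbed array 3 was and 0.78 with no background correction. Psmc2 had 7.93, 6.85 and 10.43 against 7.07, 8.44 and 7.19, with stable array 3 highest. Its difference of -0.83 (SE 0.90, limma adjusted p = 0.890) became 0.18 when that array was left out, and its other probe gave -0.060 (SE 0.37).

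Psmc5 had 7.35, 7.77 and 6.85 against 6.79, 7.24 and 7.61 on its brightest probe, a difference of -0.11 (SE 0.40) between overlapping groups. Its other probe had 5.42, 4.31 and 5.38 against 5.45, 5.80 and 7.17, where the groups did not overlap, and a difference of 1.11 (SE 0.56, limma adjusted p = 0.890). Psmc1, with 6.99, 5.99 and 7.80 against 7.95, 6.63 and 6.97, had overlapping groups and a difference of 0.26 (SE 0.57) that became -0.21 when stable array 2 was left out.

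**Figure D3:**
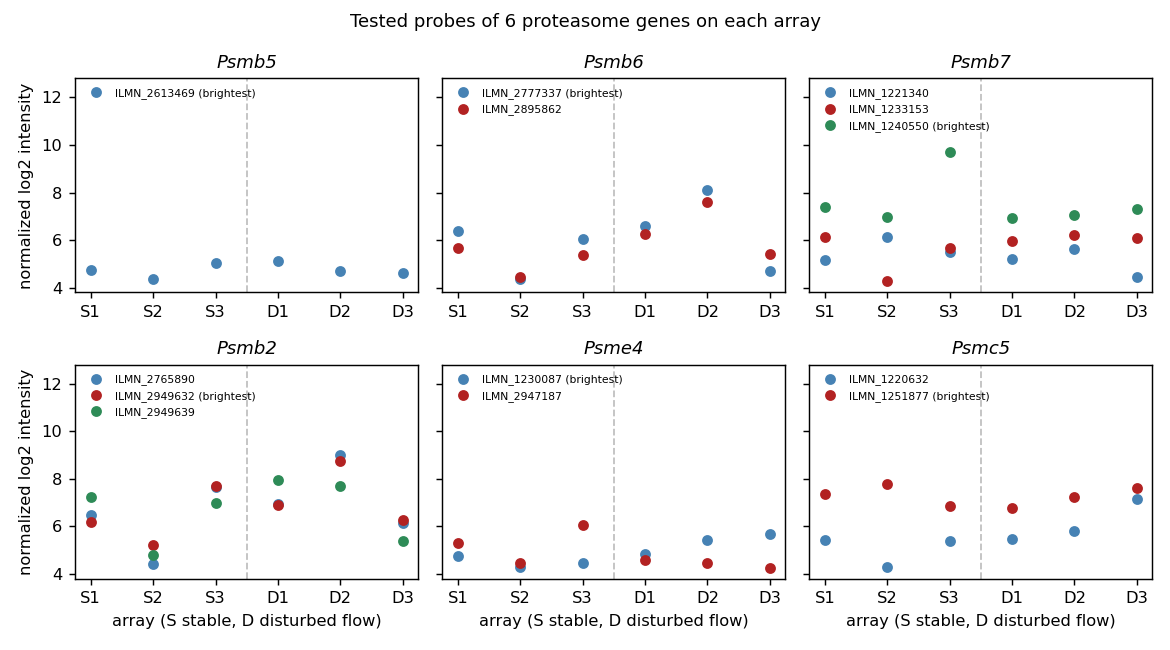
Normalized log2 intensity (y axis) of each tested probe of Psmb5, Psmb6, Psmb7, Psmb2, Psme4 and Psmc5 on the 6 arrays (x axis; S, stable flow replicates 1 to 3; D, disturbed flow replicates 1 to 3). Both probes of Psmb6 are highest on disturbed array 2 and lowest on stable array 2, while the probes of Psmb7, Psme4 and Psmc5 are highest on different arrays.

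Of the non-ATPase subunits, 2 of 3 base genes and 5 of 7 tested lid genes had a higher mean, with medians of 0.26 and 0.18. Psmd11, a lid gene, had 5.11, 4.32 and 4.46 against 6.47, 5.38 and 4.83. Its brightest probe, which gave these values, was above background on 1 stable array and 2 disturbed arrays. The groups overlapped, and the difference of 0.93 (SE 0.50, limma adjusted p = 0.890) was 0.47 when disturbed array 1, the highest, was left out. It was 0.34 with no background correction, and its other tested probe gave 0.18 (SE 0.35). Psmd14, the gene of the lid's deubiquitinase, had 6.22, 5.00 and 6.44 against 6.04, 5.98 and 4.60, with disturbed array 3 lowest. Its difference of -0.35 (SE 0.57, limma adjusted p = 0.910) became 0.12 when that array was left out, and its other probe gave 0.40 (SE 0.40).

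Psmd4, the gene of a ubiquitin receptor in the base, had 9.64, 9.17 and 9.82 against 9.84, 10.58 and 8.97, with disturbed array 2 highest and disturbed array 3 lowest. Its difference of 0.26 (SE 0.48) became -0.13 when disturbed array 2 was left out. Psmd13, a lid gene above background on all 6 arrays, had 7.95, 7.78 and 7.16 against 7.10, 7.38 and 8.10. The groups overlapped, and its difference of -0.10 (SE 0.41) became 0.64 with arrays scaled to the same 75th percentile.

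The activators included Psme4, the only one of the 36 genes whose brightest probe separated the groups. Psme4, which encodes a large activator found in the nucleus, had 4.77, 4.31 and 4.46 under stable flow and 4.84, 5.45 and 5.68 under disturbed flow. The difference was 0.81 (SE 0.36, 95% interval -0.043 to 1.67, limma adjusted p = 0.890), and 0.27 with no background correction. Its probe was above background on 1 stable array and 3 disturbed arrays, so it passed the filter through the group where it was higher, and its stable mean rests mostly on values not above background. Its other tested probe had the opposite sign, with 5.30, 4.48 and 6.07 against 4.58, 4.45 and 4.27, a difference of -0.85 (SE 0.46). That probe was above background on 2 stable arrays and 1 disturbed array, so its disturbed mean rests mostly on values not above background.

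Psme1, an interferon-induced activator gene, had 8.08, 7.44 and 8.33 against 8.47, 8.88 and 7.53 on its brightest probe, a difference of 0.35 (SE 0.46) that was 0.054 when disturbed array 2, the highest, was left out. Its other probe had 6.60, 4.75 and 6.30 against 8.19, 6.22 and 7.32, a difference of 1.36 (SE 0.67), and the groups overlapped on both. Psme3, which encodes a nuclear activator, had 4.88, 6.06 and 4.90 against 4.92, 4.61 and 4.52, with stable array 2 highest after normalization. Before normalization its signals were 137, 97.1 and 112 against 103, 81.5 and 83.0, and stable array 2 was not highest. Its difference of -0.60 (SE 0.42, limma adjusted p = 0.890) was -0.21 when stable array 2 was left out. The probe was above background on 3 stable arrays and 1 disturbed array, so it passed the filter through the group where it was higher.

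Of the 7 assembly chaperone genes, 3 were tested. Psmd9 had 5.60, 4.28 and 5.15 against 5.53, 5.54 and 6.37, with stable array 2 lowest and disturbed array 3 highest. Its difference of 0.80 (SE 0.46, limma adjusted p = 0.890) was 0.44 when stable array 2 was left out and 0.30 with no background correction. Psmg2 had 4.55, 4.58 and 6.44 against 4.64, 4.55 and 4.43, and its difference of -0.65 (SE 0.55, limma adjusted p = 0.890) was -0.029 when stable array 3, the highest, was left out. Its other tested probe gave -0.48 (SE 0.57), with 6.32 on the same array. The brightest Psmg2 probe was above background on 2 stable arrays and 1 disturbed array, so its disturbed mean rests mostly on values not above background.

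The other 12 tested genes had differences from -0.29 to 0.70, 9 higher and 3 lower. Psmd1, Psmd7 and Psmd10, named here after their values were seen, were those of the 12 with 3 tested probes, and the probes of each had the same sign. These gave 0.12 to 0.50 for Psmd1, a base gene, 0.67 to 1.39 for Psmd7, a lid gene, and 0.41 to 0.76 for Psmd10, an assembly chaperone gene. The highest of the Psmd7 probes had 4.56, 4.65 and 4.61 against 4.70, 8.34 and 4.94, so disturbed array 2 alone was high. This probe was above background on 1 stable array and 2 disturbed arrays. The highest of the Psmd10 probes was above background on 1 stable array and 3 disturbed arrays. It thus passed the filter through the group where it was higher.

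Probes of the same gene often disagreed. Of the 20 member genes with several tested probes, 12 had differences of the same sign and 8 of opposite signs. The gap between the lowest and highest probe had a median of 0.70. It was widest for Psme4 (1.67), Psmb7 (1.63), Psmc5 (1.22) and Psme1 (1.02), which were named for it.

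**Figure D4:**
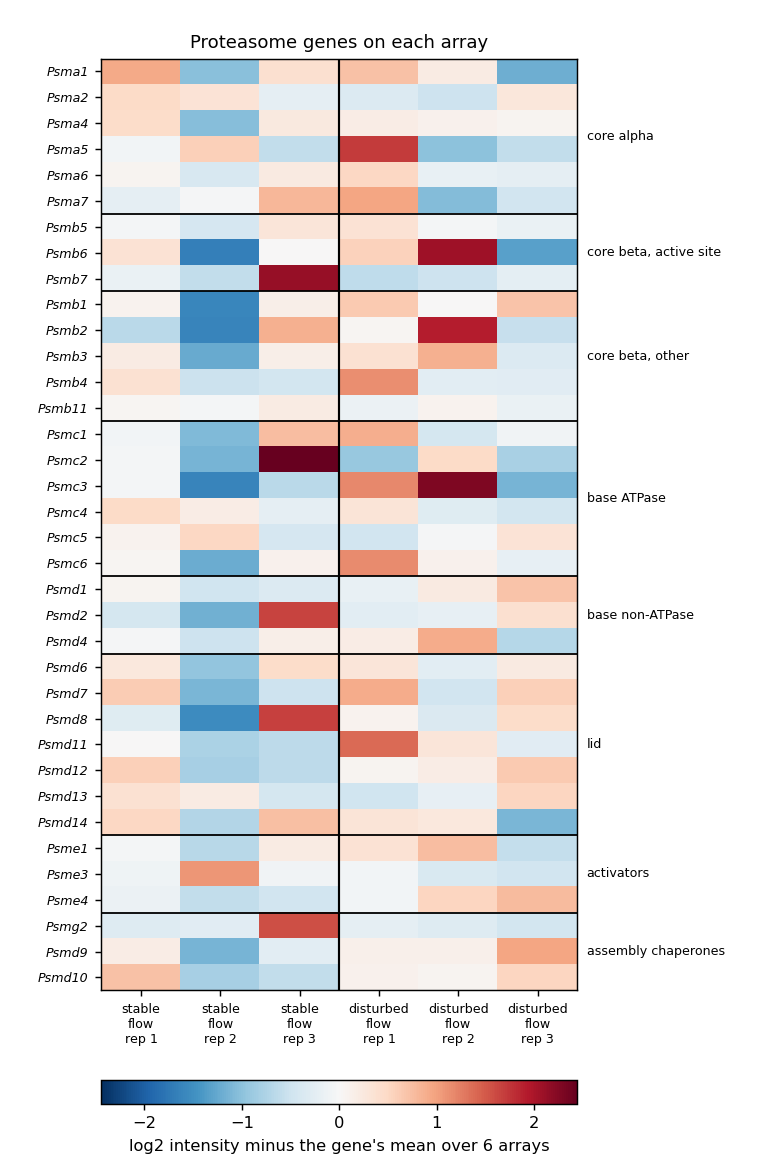
Normalized log2 intensity of the tested probe with the highest mean for 36 proteasome genes (rows, by class) on the 6 arrays (columns), each minus the gene's mean over the arrays; red is higher and blue lower. Stable array 2 is the lowest array for 23 of 36 genes, and the highest values are spread over all 6 arrays.

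Stable array 2 was the lowest of the 6 for 23 of the 36 genes, while 49.1% of all tested genes were lowest there. Of the 36 genes, 6 lay above their own mean on it, against 14 to 25 on the other arrays. Of all tested genes, 29.9% lay above their own mean on stable array 2. The highest values were spread, with 5, 2 and 8 genes highest on stable arrays 1, 2 and 3, and 9, 6 and 6 on disturbed arrays 1, 2 and 3. On disturbed array 3, 3 of 14 core genes and 11 of 22 regulatory genes lay above their own mean, a split that was not tested. There, 46.1% of all tested genes did. Of the 14 core genes, 11 lay above their own mean on disturbed array 1 (median deviation 0.43) and 11 on stable array 3 (median deviation 0.21), where 47.1% and 43.5% of all tested genes did.

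Macrophage, fibroblast, smooth muscle and lymphocyte marker probes were above background most often on disturbed array 1, while those of red cells and platelets were so on stable array 1 (3 of 7, against 1 to 2). Endothelial marker probes were above background for 21 of 25 on both of these arrays, against 11 to 18 on the others. Of all probes, 34.7% were above background on disturbed array 1 and 35.0% on stable array 1, against 9.74% to 29.7% on the others. Macrophage and monocyte marker probes were above background for 8 of 12 on disturbed array 1, against 0 to 3 on the others. Their summed normalized intensity was 263 to 310 under stable flow and 263 to 719 under disturbed flow, highest on that array, with C1qa and Itgam above background on 0 arrays. Fibroblast marker probes were above background for 12 of 14 there, against 2 to 7, but their sum was 646 there, the lowest of the disturbed arrays, within 423 to 1443 under stable flow and 646 to 1054 under disturbed flow. Smooth muscle marker probes were above background for 11 of 18 there, against 3 to 10, with sums of 987 to 1183 under stable flow and 771 to 1577 under disturbed flow, highest on that array, and Lmod1 and Tagln on 0 arrays. Lymphocyte marker probes were above background for 2 of 8 there, against 0 to 1, with sums of 156 to 206 and 159 to 361, also highest there, and Cd3e and Cd3g on 0 arrays. The part of these cells in the core values was not tested. In such bulk RNA, fewer cells of a type and less RNA per cell cannot be told apart.

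Genes that work with the constitutive proteasome also gave 0 passing members. The 3 immunoproteasome genes, whose products replace the active-site subunits after interferon, had differences of 0.027 (SE 0.47) for Psmb8, 1.27 (SE 0.47, limma adjusted p = 0.890) for Psmb9 and 0.26 (SE 0.63) for Psmb10. Psmb9 had 6.64, 5.41 and 6.95 against 7.57, 7.80 and 7.42, groups that did not overlap. Stable array 2, where its probe was not above background, was lowest, and the difference was 0.80 when it was left out. The sign of Psmb8 was the opposite when stable array 1 was left out (-0.31), and that of Psmb10 when stable array 2 was (-0.47). Nfe2l1 had 9.13, 8.15 and 8.27 against 7.84, 8.62 and 7.83. The groups overlapped, and its difference of -0.42 (SE 0.42) became 0.45 with arrays scaled to the same 75th percentile and 0.24 with no normalization. It was -0.11 when stable array 1 was left out and -0.68 when disturbed array 2 was.

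Of 15 listed genes of proteasome-bound factors and shuttle receptors, 10 were tested, 4 higher and 6 lower, with a median of -0.12. The smallest p was that of Ecpas, a proteasome adaptor gene, at 0.95 (SE 0.49), or 0.59 when stable array 2 and 0.61 when disturbed array 2 was left out. Of 10 regulators of proteasome transcription, 7 were tested, 3 higher and 4 lower, with a median of -0.11. The smallest p was that of Nfe2l3, a relative of Nfe2l1, at 0.65 (SE 0.38). Its brightest probe was above background on 1 stable array and 3 disturbed arrays. That probe thus passed the filter through the group where it was higher, and its stable mean rests mostly on values not above background. Of 9 genes of the p97 segregase and its cofactors, which pull ubiquitin-marked proteins out of complexes, 8 were tested, 4 higher and 4 lower, with a median of -0.090. The smallest p was that of the cofactor gene Ubxn1 at -1.12 (SE 0.48), or -0.64 when stable array 3 was left out. Of 20 genes of ubiquitin and its activating and conjugating enzymes, 13 were tested, 8 higher and 5 lower, with a median of 0.12. The smallest p was that of the conjugating enzyme gene Ube2j1 at -0.67 (SE 0.35), or -0.42 when stable array 3 was left out. The Ube2j1 probe was above background on 2 stable arrays and 1 disturbed array, so its disturbed mean rests mostly on values not above background. In these lists and the immunoproteasome, limma called 0 genes, and 1 gene, Psmb9, had an unadjusted p under 0.05. Of all tested genes, 2.97% had such a p.

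Other multi-subunit complexes were set beside these. The COP9 signalosome, whose subunits are relatives of those of the proteasome lid, had a median of 0.44 over 8 tested genes, 6 higher and 2 lower. The groups did not overlap for 4 of the 8, 2 higher and 2 lower, against 10.2% of all tested genes. An unadjusted p under 0.05 was found for 2 of the 8, Cops5 and Cops2, both lower, against 2.97% of all tested genes. Cops2, named after its value was seen, differed by -1.77 (SE 0.59). The smallest p of the complex was that of Cops5, the relative of Psmd14, at -1.43 (SE 0.30, limma adjusted p = 0.890), with -0.93 (SE 0.72) on its other tested probe. The initiation factor eIF3 had a median of -0.024 over 10 tested genes, with the smallest p for Eif3i (-0.82 (SE 0.46)), whose other tested probes gave -0.68 and 0.62. Its value was -0.41 when stable array 1 was left out and 0.14 with the 75th percentile. The CCT chaperonin had a median of -0.0082 over 8 genes, with the smallest p for Cct8 (1.10 (SE 0.49)), or 0.60 when stable array 2 was left out. Limma called 0 genes of each list, and the differences between lists were not tested.

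The 4 probes that matched the symbol pattern without naming a subunit included 2 tested probes, both of Psme3ip1. The brighter was above background on all 6 arrays with 6.65, 6.39 and 6.34 against 6.19, 6.25 and 5.72, groups that did not overlap, and a difference of -0.41 (SE 0.33, limma adjusted p = 0.890). The other gave -0.13 (SE 0.32).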

How the data were processed

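Bead arrays of 1 colour read the RNA of 6 samples, 3 for each flow group. Per the file headers, the deposited intensity values are bead signals not yet normalized between arrays, and each carries a deposited detection p-value. The submitters' processing notes name GenomeStudio 2011.1, with settings that the sources used here do not give. The deposited matrix, a further set of intensity values, was used only as an alternative.

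Background correction, quantile normalization and the log2 scale came from neqc in limma 3.58.1 (R 4.3.3), with an offset of 16. A probe was tested where its detection p was below 0.05 on 3 or more arrays, which left 12546 of 45281. Groups were compared by lmFit and eBayes. Two-sided p-values were adjusted over all tested probes after Benjamini and Hochberg, with a threshold of 0.05. The fit was tested on simulated data. The simulated noise was independent and, for each probe, of equal size on all arrays, so that test does not cover uneven arrays. In the platform annotation 34885 probes had 1 symbol, 18 had several and 10378 are unnamed here, and all 81 member probes matched the RefSeq gene table.

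The members and lists were chosen with earlier results of these data known. The named genes were Psmb5, Psmb6 and Psmb7, and the most positive, most negative and smallest-p gene of each class. The classes were alpha, other beta, base ATPase, non-ATPase base joined with lid, activator and chaperone. The 4 genes with the widest gap between probes were also named, which made 18 in all. Another 6 above background on all arrays were added after their values were seen. A gene is given by its tested probe with the highest mean. Genome positions come from RefSeq windows and not from the probes. The number of arrays limits the precision. Alternatives changed the background correction, normalization, filter, array weights, replicate block, deposited values and the arrays kept.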

Additional observations from a re-analysis of the deposited data

How the results depend on the processing

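Limma called 0 of all tested probes and 0 proteasome probes under every alternative run, among them a detection p under 0.01 (8948 probes) and no filter (45281 probes). The smallest adjusted p over all probes ran from 0.214 with no filter to 1.00 with no normalization. Member probes at an unadjusted p under 0.05 numbered 0 of 63 in the reported fit, 2 with cyclic loess, 4 with array weights, 5 of 81 with no filter and 0 to 3 with single arrays left out. All probes at that level ran from 15 with no normalization to 658 with array weights and, with no filter, 2097. No normalization moved the median over all probes from 0.098 to -0.10. At a detection p under 0.01, the member probes above background were 61, 10 and 51 under stable flow and 61, 57 and 35 under disturbed flow. With the replicate number as a block there were 0 calls and 329 probes at an unadjusted p under 0.05, against 338. Deviations of same-numbered arrays correlated at -0.035, -0.074 and -0.085, and 0 of 3 stable arrays correlated best with its own number. The leading number of the array codes could not be fitted as a block.

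The matrix columns as named moved the member median to -0.24 and the regulatory median to -0.30, and turned all 39 genes followed: 0.28 for Acta2, -1.16 for Cct8, -0.11 for Cdh5, 1.37 for Cops5, -0.93 for Ecpas, 0.81 for Eif3i, -0.32 for Myh11, 0.41 for Nfe2l1, -1.09 for Nfe2l3, 0.18 for Pecam1, 0.37 for Psma2, -0.23 for Psma4, -0.067 for Psma5, 0.36 for Psma7, -0.95 for Psmb1, -0.24 for Psmb10, 0.18 for Psmb11, -0.91 for Psmb2, -0.39 for Psmb4, -0.17 for Psmb5, -0.92 for Psmb6, 0.90 for Psmb7, -0.026 for Psmb8, -1.23 for Psmb9, -0.25 for Psmc1, 0.83 for Psmc2, -1.69 for Psmc3, 0.11 for Psmc5, -1.03 for Psmd11, 0.10 for Psmd13, 0.34 for Psmd14, -0.26 for Psmd4, -0.92 for Psmd9, -0.34 for Psme1, 0.60 for Psme3, -0.93 for Psme4, 0.66 for Psmg2, 0.70 for Ube2j1 and 1.08 for Ubxn1. Its column medians were 2.50 to 2.62 and 36.0% to 36.5% of its values lay below 0, with a background correction and scaling that the sources used here do not state. Assigned by rank order, an alternative chosen after seeing the data, the same columns turned 0.

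No background correction turned Psmb8 (-0.0078). The same 75th percentile turned Acta2 (0.52), Eif3i (0.14), Nfe2l1 (0.45), Pecam1 (0.88), Psma2 (0.55), Psma4 (-0.011), Psma7 (0.24), Psmc5 (0.53) and Psmd13 (0.64). Cyclic loess turned Cdh5 (-0.075), Psma4 (-0.15), Psmb10 (-0.23), Psmc1 (-0.092), Psmc5 (0.095) and Psmd13 (0.13). No normalization turned Acta2 (0.31), Myh11 (-0.081), Nfe2l1 (0.24), Pecam1 (0.67), Psma2 (0.34), Psma4 (-0.22), Psma7 (0.032), Psmb10 (-0.096), Psmb5 (-0.10), Psmc5 (0.32) and Psmd13 (0.43). Array weights turned Cdh5 (-0.16), Psma4 (-0.080), Psmb10 (-0.23), Psmb5 (-0.036), Psmc1 (-0.20) and Psmc5 (0.050). The cause was not tested. With single arrays left out, the member median ran from 0.022 to 0.40, the core median from -0.089 to 0.31 and the regulatory median from 0.082 to 0.46. Genes whose sign turned ran from -0.26 to 0.42 for Cdh5, from -0.36 to 0.036 for Pecam1, from -0.23 to 0.51 for Psma4, from -0.77 to 0.58 for Psma5, from -0.95 to 0.063 for Psma7, from -0.47 to 0.73 for Psmb10, from -0.069 to 0.68 for Psmb4, from -0.071 to 0.28 for Psmb5, from -0.31 to 0.42 for Psmb8, from -0.21 to 0.70 for Psmc1, from -1.61 to 0.18 for Psmc2, from -0.34 to 0.11 for Psmc5, from -0.39 to 0.11 for Psmd13, from -0.79 to 0.12 for Psmd14 and from -0.13 to 0.67 for Psmd4.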
